A study of Mus musculus with 4 samples.

Results

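The mitosis and G2/M genes are 40 genes chosen by symbol, whose products carry a cell from the end of DNA synthesis through chromosome segregation and cytokinesis. All 40 were found, among 24319 entries with a gene symbol in both deposited tables. They were measured by RNA sequencing in 4 libraries from primary cultures of mouse marrow, labelled as mesenchymal stem cells (MSCs), stromal cells able to form bone, fat and cartilage. The libraries came from cells labelled knockout (KO) for Kdm4b, a demethylase of histone H3, under osteogenic induction and in control medium, and from cells labelled wild type (WT) under induction and in control medium, each after 4 days of culture. Each combination held 1 library, so no value below has a p-value, a standard error or a spread between cultures. The sources used here do not give how the knockout was made, the strain or age of the animals, or the make-up of the induction medium.

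Most genes of this kind are silent or low in resting cells and are transcribed in late S phase and G2, so their RNA level follows how many cells of a population are cycling. The transcription factor FOXM1 and the MuvB complex with B-MYB activate them, and the DREAM complex, in which MuvB is joined by an RB-family protein and E2F4, represses them in quiescent cells. MuvB binds a promoter element called CHR (cell cycle genes homology region), which often stands next to CCAAT boxes, the sites of the factor NF-Y. In the marrow stroma, division precedes osteoblast maturation, and maturing osteoblasts leave the cell cycle. RNA from a whole culture gives an average, in which fewer dividing cells and less RNA in each dividing cell cannot be told apart.

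The CHR and CCAAT letters are shown for a few members because they are what most of the promoters share and because the members differed in response. The promoter table, from RefSeq on the mouse build GRCm38.p6, covers 250 bases before and 50 bases from the annotated start of a gene, and held 33 of the 40 members. The CHR was searched as TTTGAA or TTCGAA and the CCAAT box as CCAAT, both on either strand, and a CHR match can share bases with a CCAAT match. The stretches below run from 120 bases before the start to 30 bases into the transcript, in the direction of transcription, with CHR and CCAAT matches in capitals. The first 7 are genes with both elements, chosen to cover a cyclin (Ccnb2), the entry kinase (Cdk1), the exit machinery (Cdc20, Ube2c), the centromere (Cenpa), the passenger complex (Cdca8) and a spindle motor (Kif23). Ect2 is shown as the member that differed least between the induced libraries, and Birc5 as a strongly differing member with neither element in the window. They were chosen after their values had been seen.
Ccnb2: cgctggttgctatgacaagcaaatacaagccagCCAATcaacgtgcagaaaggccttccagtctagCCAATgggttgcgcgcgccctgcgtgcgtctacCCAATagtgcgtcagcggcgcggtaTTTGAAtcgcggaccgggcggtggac
Cdk1: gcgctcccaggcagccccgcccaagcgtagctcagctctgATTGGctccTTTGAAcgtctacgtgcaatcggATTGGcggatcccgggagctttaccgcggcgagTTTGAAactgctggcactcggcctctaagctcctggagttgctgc
Cdc20: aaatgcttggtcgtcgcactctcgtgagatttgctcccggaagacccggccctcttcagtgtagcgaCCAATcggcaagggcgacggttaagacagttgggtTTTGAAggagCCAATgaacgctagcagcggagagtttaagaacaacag
Ube2c: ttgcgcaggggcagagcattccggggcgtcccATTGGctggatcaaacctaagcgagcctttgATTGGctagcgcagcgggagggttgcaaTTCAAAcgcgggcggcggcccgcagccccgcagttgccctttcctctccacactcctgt
Cenpa: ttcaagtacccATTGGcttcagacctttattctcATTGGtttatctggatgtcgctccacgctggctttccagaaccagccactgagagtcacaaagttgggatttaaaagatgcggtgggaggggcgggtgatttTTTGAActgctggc
Cdca8: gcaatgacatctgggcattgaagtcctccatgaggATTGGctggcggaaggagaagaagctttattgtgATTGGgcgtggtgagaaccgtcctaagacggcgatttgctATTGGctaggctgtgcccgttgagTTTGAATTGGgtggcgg
Kif23: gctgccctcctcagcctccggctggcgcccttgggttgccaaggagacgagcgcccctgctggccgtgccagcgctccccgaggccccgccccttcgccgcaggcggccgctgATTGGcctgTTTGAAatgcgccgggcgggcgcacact
Ect2: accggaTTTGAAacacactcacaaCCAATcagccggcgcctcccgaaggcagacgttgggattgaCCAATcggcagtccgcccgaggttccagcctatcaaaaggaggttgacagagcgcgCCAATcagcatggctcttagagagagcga
Birc5: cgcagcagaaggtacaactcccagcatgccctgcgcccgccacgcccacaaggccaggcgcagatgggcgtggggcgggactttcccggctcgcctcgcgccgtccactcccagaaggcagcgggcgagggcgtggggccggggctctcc

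The Ccnb2 stretch lies at chr9:70421525-70421674 (minus strand), that of Cdk1 at chr10:69352883-69353032 (minus strand), and that of Cdc20 at chr4:118437314-118437463 (minus strand). Ube2c lies at chr2:164769809-164769958 (plus strand), Cenpa at chr5:30666766-30666915 (plus strand) and Cdca8 at chr4:124936888-124937037 (minus strand). Kif23 lies at chr9:61946770-61946919 (minus strand), Ect2, by the first of its entries, at chr3:27153849-27153998 (minus strand), and Birc5 at chr11:117849117-117849266 (plus strand). In Ccnb2 the CHR begins 5 bases into the transcript, behind CCAAT matches that begin 87, 54 and 21 bases before the start. In Cdk1 the CHR nearest to the start begins 15 bases before it, with a CCAAT match in reverse 48 bases before it. In Ube2c they lie 29 and 57 bases before the start. Ect2 has another CHR match, not printed, which begins 40 bases into the transcript, past the end of the stretch. The nearest CCAAT match ahead of that CHR begins 2 bases into the transcript.

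CHR letters were found in 27 of the 33 promoters (81.8%), against 21.7% of the 27025 genes in the table. CCAAT letters were found in 26 of 33 (78.8%), against 41.1% of all genes, and 24 promoters (72.7%) held both, against 9.65%. In 16 of the 33 (48.5%) the nearest CCAAT match ahead of a CHR began 20 to 50 bases before it, against 1.38% of all genes, a window set after the positions had been seen. In these 16 the distance was 24 to 44 bases, with a median of 32. The E2F-type letters GCGGGAA, on either strand, were found in 0 of 33 promoters and in 5.29% of all genes. Birc5, Mad2l1, Nuf2 and Nusap1 had neither CHR nor CCAAT letters in this window. Genes of one table share base composition and annotation, and a match of letters is not evidence of binding. Aurkb, Ccna2, Cdc25c, Foxm1, Incenp, Kif20a and Tpx2 were not among the matched promoters.

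**Figure D1:**
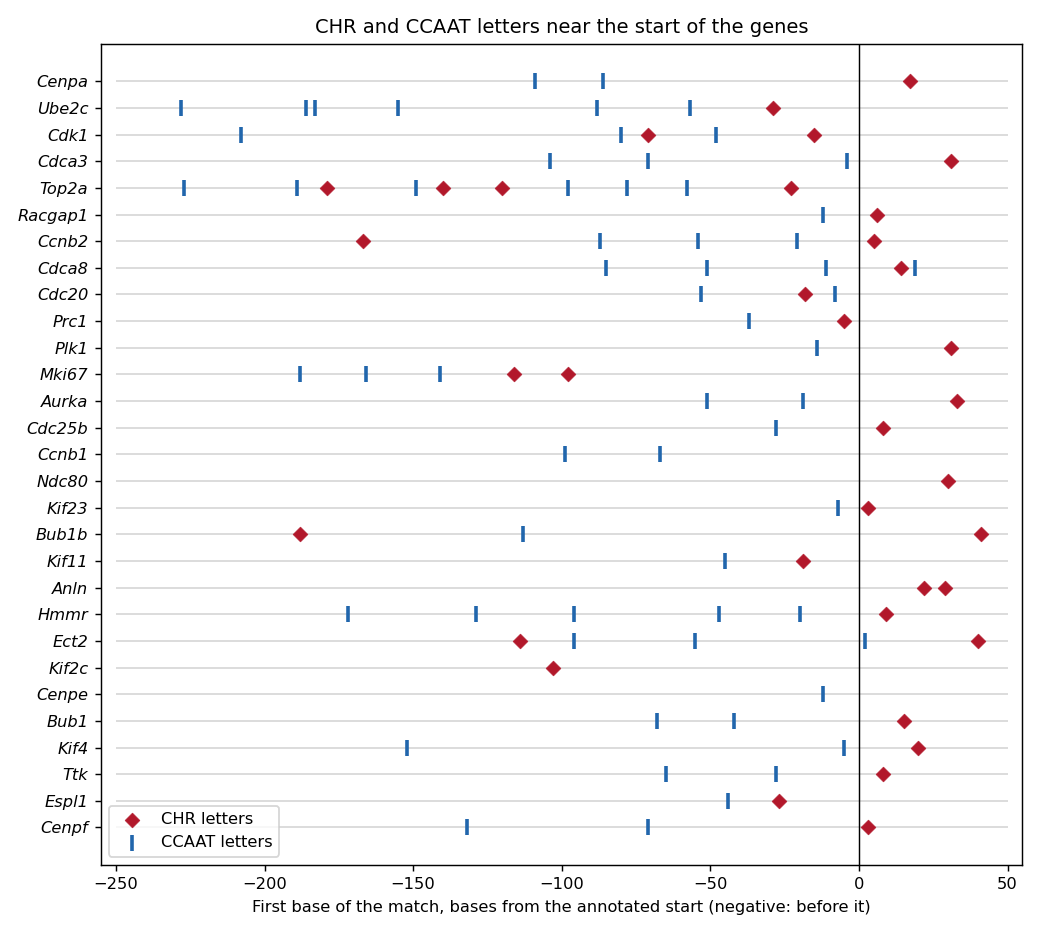
Positions of CHR letters (red diamonds) and CCAAT letters (blue bars) for the members with at least 1 match, in bases from the annotated start (x axis, negative before the start), with genes ordered by mean FPKM. The first entry is drawn for genes with more than 1. CHR matches sit mostly between 30 bases before and 41 bases after the start, with most CCAAT matches upstream of them.

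The libraries were checked before the members were compared. Kdm4b itself was at 4.26 and 4.30 FPKM in the induced and control libraries labelled KO, and at 5.83 and 4.603 FPKM in those labelled WT, so its level did not separate the genotype labels clearly. FPKM counts sequenced fragments for each kilobase of a transcript relative to all mapped fragments of the library. The induced library labelled WT stood apart in sex-linked genes: Xist, the RNA of the inactive X chromosome, was at 0.0621 FPKM there and at 21.6 to 30.5 FPKM in the other 3, and the Y-linked Eif2s3y was at 39.4 FPKM there and listed at 0 in the others. In every comparison with that library, genotype label or medium cannot be told apart from the sex of the animal. All 16 macrophage markers were above 1 FPKM in every library, the lowest being 13.1 FPKM. They summed to 19672 and 17590 FPKM in the induced and control libraries labelled KO, and to 14506 and 19477 FPKM in those labelled WT. The 13 stromal markers measured summed to 1427 and 1255 FPKM in the libraries labelled KO, and to 2366 and 1003 FPKM in those labelled WT. Their medians ranked the libraries differently, at 32.0 and 33.1 FPKM in those labelled KO and 12.9 and 20.4 FPKM in those labelled WT. In the induced WT library 8 of the 13 were at their highest and 4 at their lowest. Macrophage markers were thus abundant in all 4 libraries labelled MSC, and which cells expressed the mitotic genes was not tested. Total read counts are unknown. Steps between low FPKM values gave rough depths relative to the control WT library. They were about 1.09 times in the induced KO library, 0.913 times in the control KO library and 0.805 times in the induced WT library. Each rests on the most frequent ratio between low values. In that order, 117 of 1486, 80 of 1363 and 38 of 1110 genes lay near it.

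All 40 members had their lowest level in the induced library labelled WT. Over the 12294 genes with at least 1 FPKM in a library, 37.2% were lowest there. The summed FPKM of the 40 members was 326 and 349 in the induced and control libraries labelled KO, and 123 and 447 in the induced and control libraries labelled WT. The next lowest library exceeded the induced WT library by 1.25-fold (Ect2) to 4.98-fold (Cdca3), with a median of 2.67-fold. Among the other 3 libraries the highest exceeded the lowest by 1.07-fold (Bub1b) to 2.10-fold (Birc5), with a median of 1.42-fold. The control library labelled WT was the highest for 31 members, the control KO library for 8 and the induced KO library for 1, Bub1b. No member was listed at 0 in any library, and 8 were below 1 FPKM in the induced WT library.

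**Figure D2:**
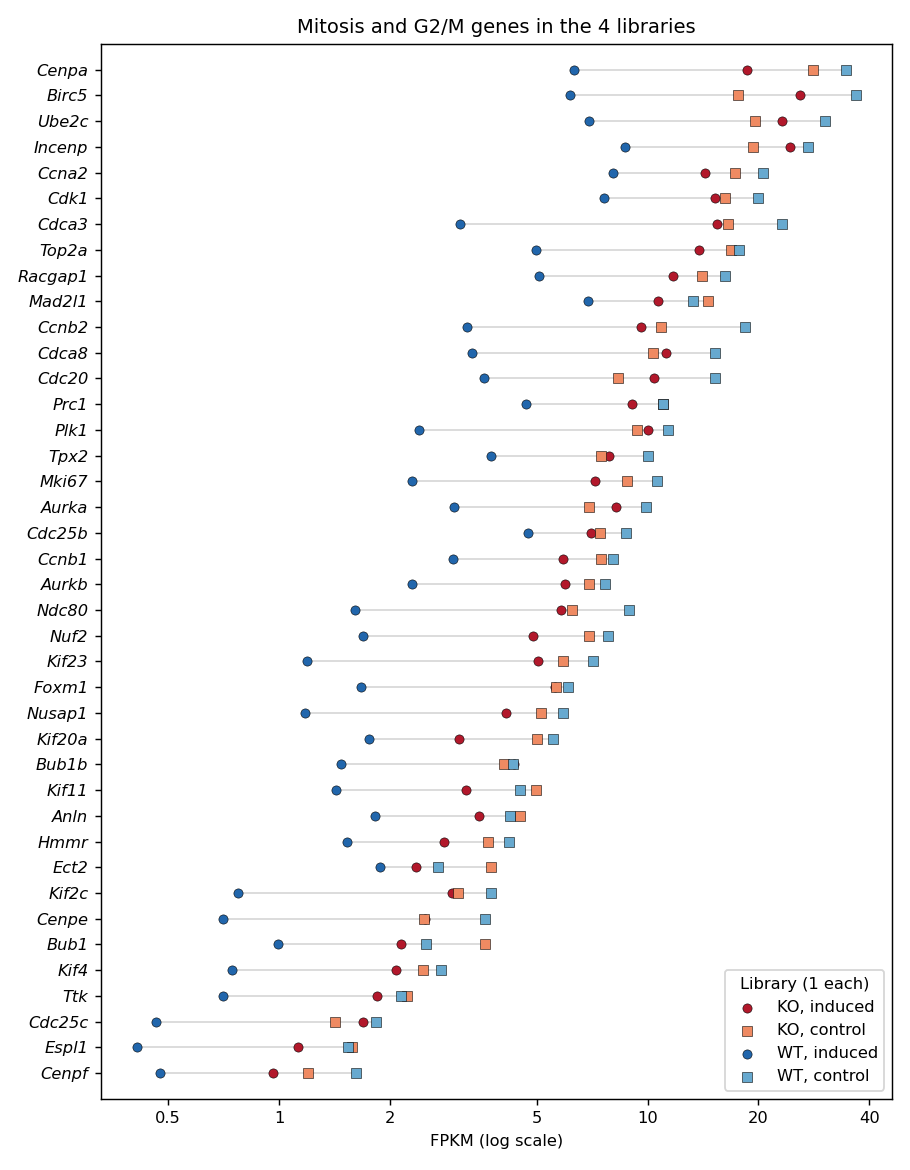
FPKM (x axis, log scale) of the 40 members in the 4 libraries, 1 point per library, genes ordered by mean level. The induced WT library is the leftmost point for all 40 genes, and the other 3 libraries lie within 2.10-fold of each other for every gene.

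The libraries were compared by the log2 ratio of FPKM + 1, in which low values give smaller ratios than their FPKM alone would. A gene was called higher or lower at a ratio of 1 or more in size, if either library compared reached 1 FPKM. That size is a 2-fold difference in FPKM + 1, so a low gene can differ more than 2-fold in FPKM and stay within the rule. Under induction, KO against WT, 22 members were higher by this size rule and 0 were lower, of 39 with a value past the minimum. Of 11936 genes, 5.27% were higher and 5.4% lower. The 39 ratios ran from 0.22 to 2.003 with a median of 1.08, beside a median of -0.02 over all genes. The remaining member, Cenpf, was at 0.965 and 0.476 FPKM. In control medium the same contrast gave 0 higher and 1 lower (Birc5) of 40, with 0.929% and 1.47% of 11845 genes called. The 40 ratios ran from -1.03 to 0.40 with a median of -0.22, and 32 were below 0, against 51.7% of all genes.

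Induction against control in the libraries labelled KO gave 0 of 40 members higher and 0 lower, where 1.54% of 11748 genes were higher and 1.07% lower. The ratios ran from -0.56 (Cenpa) to 0.54 (Birc5) with a median of -0.17. In the libraries labelled WT, 31 of 40 were lower and 0 higher, where 7.95% of 12094 genes were lower and 7.22% higher. These ratios ran from -2.56 (Cdca3) to -0.36 (Ect2) with a median of -1.40, beside -0.03 over all genes. The 4 comparisons share libraries in pairs, so a low value in the induced WT library enters both the contrast of genotype labels under induction and the contrast of media in WT. When the control WT library took the place of the induced one as the counterpart of the induced KO library, 0 of 40 members were higher, against 1.43% of all genes, and the median was -0.37. That pair differs in both medium and genotype label. With 5 FPKM added in place of 1, 6 members were higher under induction (2.47% of all genes) and 13 were lower with induction in WT (3.77% of all genes). With the tables rescaled without small RNA genes and Rn45s, a ribosomal RNA entry listed at 0 in the control WT library, the median in control medium was -0.0063, beside 0.20 over all genes, with 21 members below 0 and Birc5 within the rule. It left 17 members higher under induction and 23 lower with induction in WT. That rescaling also shifted the calls over all genes, to 2.94% higher and 9.54% lower for KO against WT under induction, 1.5% and 0.351% in control medium, 0.584% and 1.51% for induction in KO, and 12.4% and 4.36% for induction in WT.

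**Figure D3:**
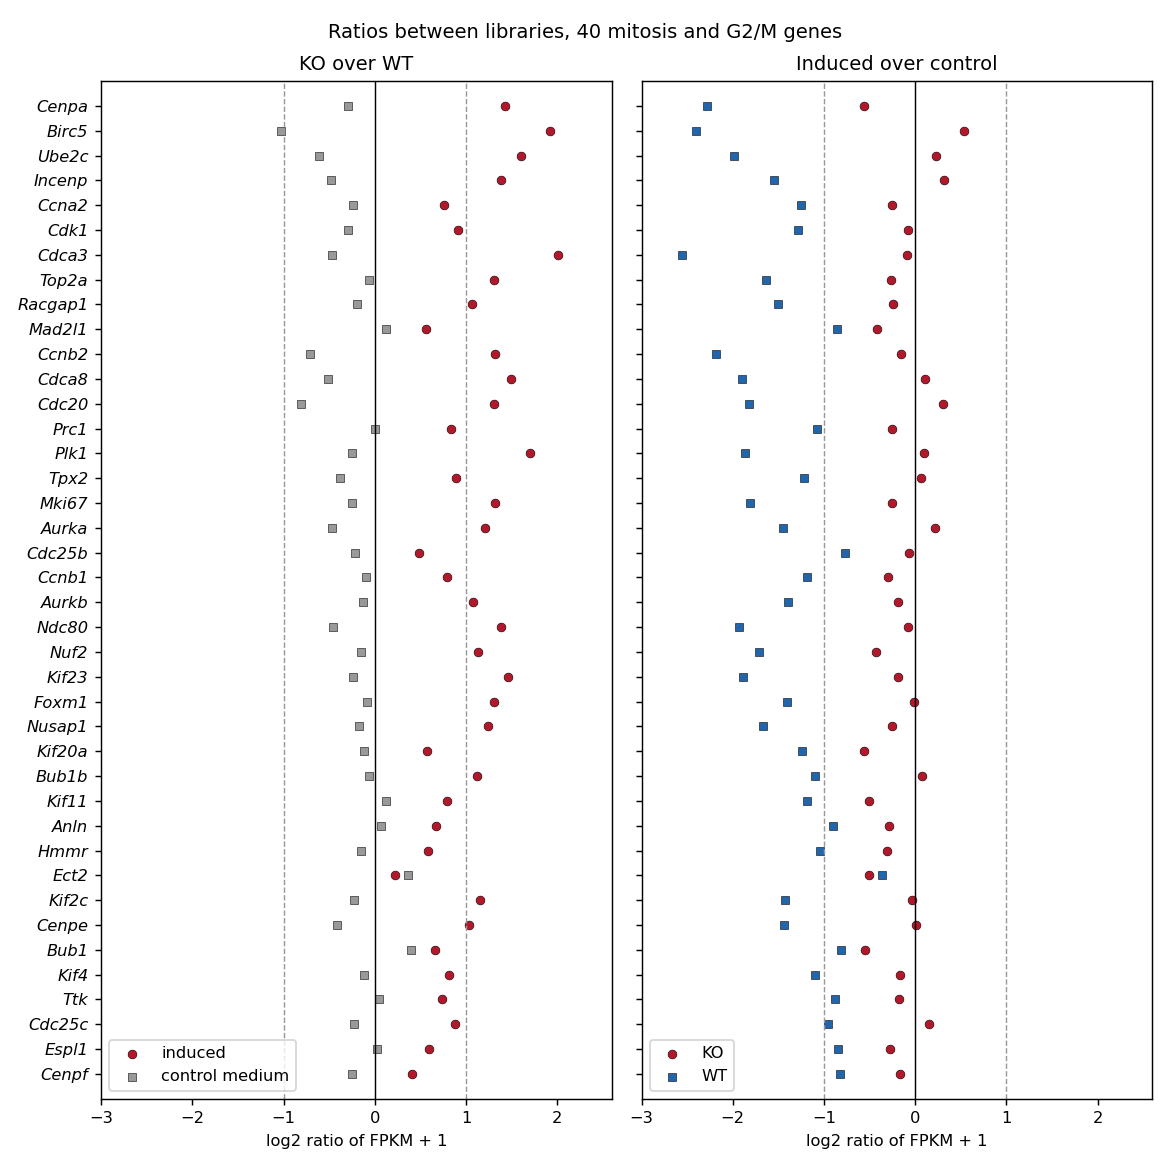
Log2 ratios of FPKM + 1 (x axis) for the 40 members, with dashed lines at the size rule. Left, KO over WT in the induced libraries (red circles) and in control medium (grey squares); right, induced over control in the libraries labelled KO (red circles) and WT (blue squares). All red circles on the left lie above 0, and all blue squares on the right lie below it.

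Cyclin-dependent kinase 1 and its partners start mitosis. Cdk1 was at 15.3 and 16.2 FPKM in the induced and control libraries labelled KO, and at 7.62 and 20.01 FPKM in those labelled WT. Ccna2, the cyclin of S phase and G2, was at 14.3 and 17.3 FPKM in the KO libraries and at 8.05 and 20.5 FPKM in the WT libraries. Both were lowest in the induced and highest in the control WT library, with the KO libraries close together in between. The B-type cyclins, which activate CDK1 at mitotic entry, differed in size of ratio. Ccnb2 was at 9.60 and 10.8 FPKM in the KO libraries, against 3.25 and 18.3 FPKM in the WT libraries. Ccnb1 was at 5.89 and 7.47 FPKM in the KO libraries, against 2.97 and 8.05 FPKM in the WT libraries. The KO to WT ratio under induction was 1.32 for Ccnb2, past the size rule, and 0.80 for Ccnb1, short of it, and in control medium the ratios were -0.71 and -0.10. The phosphatases that release CDK1 from inhibition were low to moderate. Cdc25b was at 7.04 and 7.42 FPKM in the KO libraries and at 4.74 and 8.76 FPKM in the WT libraries, and its induction ratio in WT of -0.77 was the smallest in size after Ect2. Cdc25c was at 1.69 and 1.42 FPKM in the KO libraries and at 0.463 and 1.83 FPKM in the WT libraries. Foxm1, the activator of the group, had a KO to WT ratio of 1.31 under induction and -0.09 in control medium. Of these 7 genes, 2 (Ccnb2 and Foxm1) were higher in the induced KO library, where 5.27% of all genes were. With induction in WT 5 were lower, where 7.95% of all genes were, with Cdc25b and Cdc25c within the rule. By FPKM alone Cdc25c was 3.66-fold higher in the induced KO than in the induced WT library, and 3.96-fold lower with induction in WT. The groups here and below are parts of the same member list, so their counts rest on the same induced WT library.

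The mitotic kinases order the later steps. Plk1, which acts from centrosome maturation to cytokinesis, was at 10.1 and 9.37 FPKM in the induced and control KO libraries, against 2.39 and 11.4 FPKM in the WT libraries. Its ratio under induction was 1.71, the third largest of the members. Aurka, the spindle pole kinase, was at 8.19 and 6.92 FPKM in the KO libraries and at 2.99 and 9.92 FPKM in the WT libraries. Its relative Aurkb, the kinase of the passenger complex, was at 5.97 and 6.93 FPKM in the KO libraries and at 2.29 and 7.64 FPKM in the WT libraries. Both were past the size rule under induction, at 1.20 and 1.08. They were placed differently among the libraries labelled KO, where Aurka was higher in the induced library and Aurkb in the control library, each by less than the size rule. The checkpoint kinase Bub1 was at 2.15 and 3.62 FPKM in the KO libraries, against 0.991 and 2.50 FPKM in the WT libraries, and had the largest KO to WT ratio of the members in control medium, 0.40. Its paralog Bub1b, which encodes the checkpoint protein BUBR1, was at 4.35 and 4.07 FPKM in the KO libraries, against 1.47 and 4.31 FPKM in the WT libraries. Ttk, which encodes the checkpoint kinase MPS1, had a ratio of 0.74 under induction, within the rule, though its FPKM alone was 2.62-fold higher.

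The chromosomal passenger complex, which corrects chromosome attachment and directs cytokinesis, consists of Aurora B, survivin, borealin and INCENP. Its 4 genes were all higher in the induced KO than in the induced WT library, with a median ratio of 1.44. Of all genes, 5.27% were higher there. With induction in WT all 4 were lower, with a median of -1.72, where 7.95% of all genes were lower. Birc5, which encodes survivin, was at 25.99 and 17.6 FPKM in the induced and control KO libraries, against 6.14 and 36.9 FPKM in the WT libraries. It was the member that varied most among the other 3 libraries (2.10-fold), and the single member past the size rule in control medium, at -1.03, in a direction opposite to its ratio of 1.92 under induction. Incenp was at 24.3 and 19.3 FPKM in the KO libraries, against 8.71 and 27.3 FPKM in the WT libraries. Cdca8, which encodes borealin, was at 11.2 and 10.4 FPKM in the KO libraries, against 3.35 and 15.2 FPKM in the WT libraries. The summed FPKM of the 4 genes was 67.5 and 54.2 in the KO libraries and 20.5 and 87.1 in the WT libraries.

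At the kinetochore, Cenpa, the histone H3 variant that marks centromeres, had the highest mean FPKM of the members. It was at 18.7 and 28.0 FPKM in the induced and control KO libraries, against 6.32 and 34.6 FPKM in the WT libraries. Its ratio with induction was the lowest of the members in the KO libraries (-0.56) and the third lowest in the WT libraries (-2.28). The motor Cenpe was at 2.49 and 2.48 FPKM in the KO libraries and at 0.705 and 3.62 FPKM in the WT libraries, and the large scaffold Cenpf at 0.965 and 1.20 FPKM in the KO libraries and at 0.476 and 1.62 FPKM in the WT libraries. Both were low throughout, and Cenpf had the lowest mean FPKM of the 40. Ndc80 and Nuf2, which form the microtubule-binding end of the kinetochore, had ratios under induction of 1.39 and 1.13. Mad2l1, the checkpoint protein that holds back CDC20, was at 10.7 and 14.6 FPKM in the KO libraries, against 6.91 and 13.3 FPKM in the WT libraries. Its ratio under induction was 0.56, within the rule, while that of its target Cdc20 was 1.31.

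Among the spindle proteins, Kif23, the motor of the central spindle, had the largest KO to WT ratio under induction, 1.46. Kif11, the kinesin that pushes spindle poles apart, was at 3.21 and 4.97 FPKM in the induced and control KO libraries, against 1.43 and 4.50 FPKM in the WT libraries. Its control KO level was the highest of the 4, as for 7 other members. The ratio under induction was 0.80 for Kif11, 0.82 for Kif4 and 1.16 for the microtubule depolymerase Kif2c. Tpx2, which activates Aurora A, had 0.90, Nusap1 1.24 and Hmmr 0.59. Prc1, which bundles the central spindle, was at 9.09 and 11.0 FPKM in the KO libraries, against 4.67 and 11.0 FPKM in the WT libraries. Kif20a was at 3.09 and 5.02 FPKM in the KO libraries, against 1.75 and 5.52 FPKM in the WT libraries, and its induction ratio in KO, -0.56, was close to that of Cenpa. All 9 spindle genes were lower with induction in WT, where 7.95% of all genes were lower. In the induced KO library 3 were higher, where 5.27% of all genes were. Of the cytokinesis genes, Racgap1, of the centralspindlin complex, was at 11.7 and 14.02 FPKM in the KO libraries and at 5.07 and 16.2 FPKM in the WT libraries. Ect2, the exchange factor that activates RhoA at the division plane, was at 2.36 and 3.77 FPKM in the KO libraries and at 1.88 and 2.70 FPKM in the WT libraries. It was the member with the smallest ratios under induction (0.22) and with induction in WT (-0.36), and the single member with an induction ratio further below 0 in KO (-0.51) than in WT. Anln, a scaffold of the contractile ring, had 0.68 under induction.

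The 4 genes grouped under the APC/C and exit from mitosis include Cdca3, which acts at mitotic entry. Of the 4, 3 were higher in the induced KO library, where 5.27% of all genes were. With induction in WT 3 were lower, where 7.95% of all genes were. Espl1 was within the rule in both. Cdc20, the activator of the ubiquitin ligase APC/C, was at 10.4 and 8.29 FPKM in the induced and control KO libraries, against 3.61 and 15.2 FPKM in the WT libraries. Ube2c, the ubiquitin-conjugating enzyme of the APC/C, was at 23.1 and 19.6 FPKM in the KO libraries, against 6.93 and 30.4 FPKM in the WT libraries. Cdca3, the trigger of mitotic entry that promotes degradation of WEE1, was at 15.4 and 16.5 FPKM in the KO libraries, against 3.10 and 23.2 FPKM in the WT libraries. Its ratio of 2.003 under induction was the largest of the 39, and its induction ratio in WT of -2.56 the lowest of the 40. Espl1, which encodes separase, was low in all libraries and had a ratio of 0.59 under induction. By FPKM alone it was 2.73-fold higher in the induced KO than in the induced WT library, and 3.74-fold lower with induction in WT. Cdc20, Ube2c, Ccnb2 and Birc5 also had the lowest KO to WT ratios in control medium, at -0.81, -0.61, -0.71 and -1.03. Top2a, the topoisomerase that untangles sister chromatids, was at 13.8 and 16.8 FPKM in the KO libraries, against 4.99 and 17.7 FPKM in the WT libraries. The proliferation marker Mki67 had 1.32 under induction, close to the 1.31 of Top2a.

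The ratios of the members also ran with transcript length, as those of all genes did. In control medium, Spearman's rho between the KO to WT ratio and the length of the longest coding transcript was 0.47 over the 40 members and 0.55 over 11774 genes. For induction against control in WT it was 0.50 over the members and 0.46 over 12019 genes. The other 2 comparisons had the opposite sign. For KO against WT under induction rho was -0.45 over 39 members and -0.46 over 11860 genes. For induction in KO it was -0.30 over 40 members and -0.44 over 11676 genes. Genes of a library are not independent of each other, so these are descriptions. The 10 members with the shortest transcripts, 1466 to 2199 nt, had a median KO to WT ratio of -0.46 in control medium, and the 10 with the longest, 4605 to 11130 nt, one of -0.08. With induction in WT the medians were -1.88 and -1.14. With the trend on length removed over all genes, the median of the members was -0.26 in control medium and 1.06 under induction. Over the members the ratio ran with mean FPKM as well, with rho of 0.54 for KO against WT under induction, -0.53 in control medium, 0.23 for induction in KO and -0.64 for induction in WT. Over all genes these were 0.23, -0.15, 0.21 and -0.18. The added 1 FPKM shrinks the ratios of low genes, and the mean FPKM is made from the values in the ratio. The part of length, level or RNA quality in the ratios of single members was not tested beyond this.

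**Figure D4:**
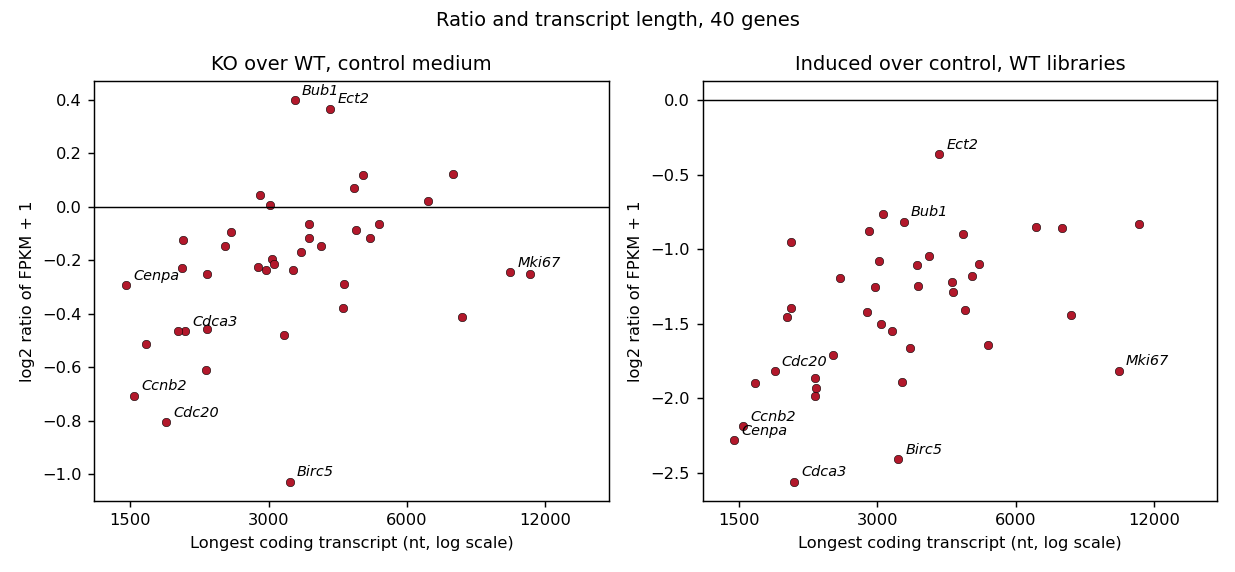
Log2 ratio of FPKM + 1 (y axis) against the length of the longest coding transcript (x axis, nt, log scale) for the 40 members, KO over WT in control medium (left) and induced over control in the WT libraries (right). Short transcripts such as Ccnb2 and Cdc20 lie low in both panels, and Birc5 and Ect2 stand off the trend in opposite directions.

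Members with and without CHR letters had overlapping ratios. With induction in WT, the 27 members with CHR letters ran from -2.56 to -0.36 with a median of -1.42, and the 6 without ran from -2.41 to -0.86 with a median of -1.55. Under induction, KO against WT, the medians were 1.12 and 1.08. Ect2, with the smallest ratio, and Cdca3, with the largest, both had CHR and CCAAT letters.

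Other cell cycle genes, from lists compiled with earlier results of these libraries known, were set beside the members. Between the induced libraries, 5.27% of all genes were higher in KO and 5.4% lower. Of 53 other mitotic genes, 20 were higher in the induced KO than in the induced WT library and 0 lower, with a median of 0.83. They included Stmn1 (1.86), which destabilises microtubules, Cdkn3 (1.83), Fam64a (1.83) and Tacc3 (1.63), a spindle protein. Haus6, of the augmin complex, was the single one below 0, at -0.28. Of 33 genes of DNA replication and S phase, 15 were higher and 0 lower, with a median of 0.97, led by Rrm2 (2.09) and Tk1 (1.99), enzymes of nucleotide supply, and the helicase subunit Mcm5 (1.83). In control medium 0 of 55 other mitotic and 0 of 34 replication genes passed the size rule, and with induction in KO 0 of 54 and 0 of 34. Of all genes, 0.929% were higher and 1.47% lower in control medium, and 1.54% and 1.07% with induction in KO. With induction in WT, 30 of 54 other mitotic and 19 of 33 replication genes were lower and 0 higher, with medians of -1.15 and -1.20. Of all genes, 7.95% were lower and 7.22% higher there. Stmn1 was at 113.5 and 112.5 FPKM in the induced and control KO libraries, against 30.4 and 184.8 FPKM in the WT libraries.

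Genes past the size rule in the lists of cell cycle regulators were set beside the shares of all genes. Under induction, KO against WT, 5.27% of all genes were higher and 5.4% lower. With induction in WT, 7.22% were higher and 7.95% lower. In control medium 0.929% were higher and 1.47% lower, and with induction in KO 1.54% and 1.07%. The lists are too short to tell their counts from these shares. All 7 cyclin and kinase genes of G1 were within the size rule in all 4 comparisons, with the largest ratios under induction for Ccnd2 (-0.67) and Myc (0.41). Of the 9 genes of CDK inhibitors and p53, Cdkn1c, which encodes the inhibitor p57, was lower in the induced KO library, at 2.03 FPKM against 13.9 FPKM in the induced WT library (-2.30), while the control KO library had 2.34 FPKM and the control WT library 3.60 FPKM of it. With induction in WT, Cdkn1c was higher (1.69) and Cdkn2a, the gene of p16 and ARF, lower (-1.01). Of 17 genes of the MuvB complex, the RB family and NF-Y, 0 passed the rule under induction, with Mybl2, the activating partner of MuvB, at 0.89 and Rb1 at -0.89. Of 15 genes of the APC/C and its cofactors, Anapc13 (1.25) and the inhibitor Fbxo5 (1.19) were higher under induction and 0 were lower. With induction in WT, Rb1 was higher (1.04), and Fbxo5 (-1.61), Anapc13 (-1.48) and Ube2s (-1.03), which extends ubiquitin chains for the APC/C, were lower.

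**Figure D5:**
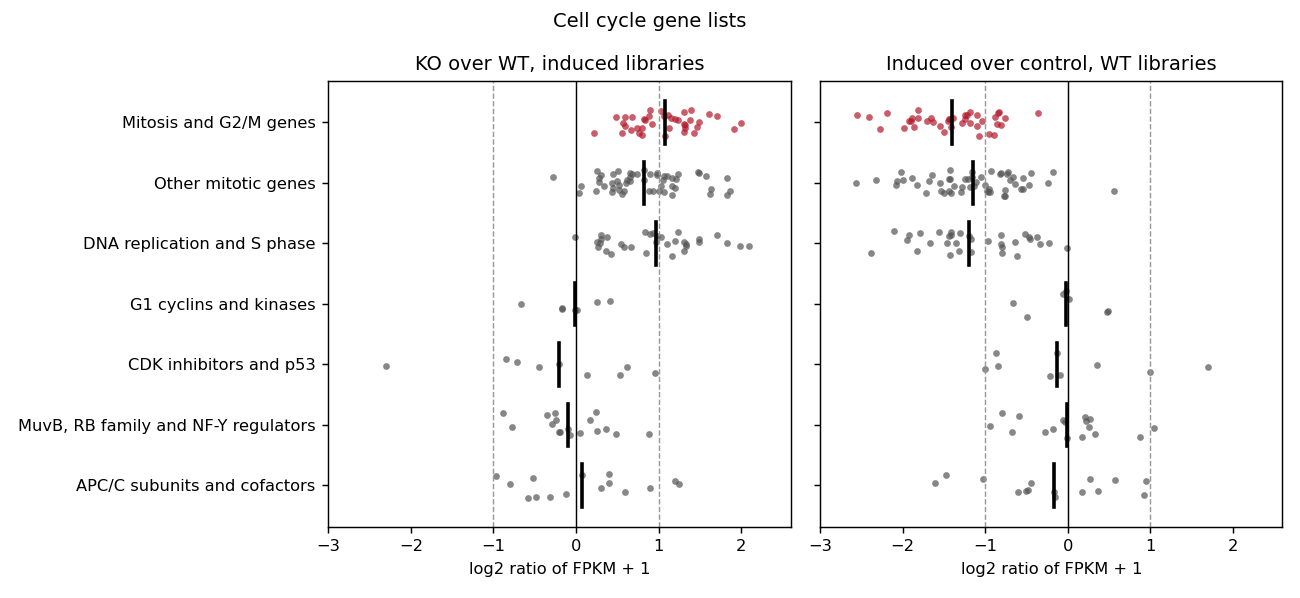
Log2 ratios of FPKM + 1 (x axis) of the genes of each list, 1 point per gene with at least 1 FPKM in a library compared, black bars at the median, dashed lines at the size rule. The members, the other mitotic genes and the replication genes lie to the right for KO over WT in the induced libraries (medians 1.08, 0.83 and 0.97) and to the left for induced over control in WT (medians -1.40, -1.15 and -1.20), and the medians of the other 4 lists lie between -0.21 and 0.07.

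Markers of other cells were compared in the same way. In the induced KO against the induced WT library, 1 of 16 macrophage markers was higher (Cd14, 2.46) and 0 lower, with a median of 0.67. Over all genes, 5.27% were higher and 5.4% lower there, with a median of -0.02. Cd14, a receptor for bacterial lipopolysaccharide, was at 212 and 345 FPKM in the induced and control KO libraries, against 37.8 and 341 FPKM in the WT libraries. With induction in WT, 1 macrophage marker was higher and 4 lower, with a median of -0.53. Of all genes, 7.22% were higher and 7.95% lower in that comparison. Of 13 stromal markers, 4 were higher and 3 lower in the induced KO than in the induced WT library, among them Ly6a (3.63) and Nt5e (-2.64), and with induction in WT 8 were higher and 3 lower. In control medium, KO against WT, 4 of 12 stromal markers were higher and 0 lower, with a median of 0.71, and 11 of the 12 were above 0. There 1 of 16 macrophage markers was higher and 0 lower, with a median of 0.01. Of all genes, 0.929% were higher and 1.47% lower in control medium. Of the 10 markers of other blood cells, S100a8 alone reached 1 FPKM in any library, and the endothelial markers stayed at or below 1.82 FPKM. Their part in the levels of the mitotic genes was not tested. Some member values may hold reads of other genes, since the use of the strand in counting is not given in the sources used here. In the GENCODE M21 annotation, exons of Kif20a overlap those of Cdc23 on the opposite strand over 31.8% of their length, those of Ube2c overlap Tnnc2 over 22.8%, those of Prc1 overlap Rccd1 over 21.8%, and those of Kif4 overlap Pdzd11 over 15.1%.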

How the data were processed

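RNA sequencing values of 4 libraries were used, 1 for each genotype label and medium. The deposited values are FPKM per the file headers. TopHat, Cufflinks and the mouse build mm9 are named in the submitters' processing notes. The sources used here do not give tool versions, annotation, filters, use of the strand or the scaling between the tables of control and induced libraries. Induction ratios therefore set values of separate tables side by side.

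From these, log2 ratios of FPKM + 1 were computed in Python 3.11.15 with numpy 2.4.6, pandas 2.3.3 and scipy 1.17.1. In each table, 27 of 24346 entries that held a date in place of a symbol were left out. A size rule of 1 on the log2 scale was applied to genes with at least 1 FPKM in a library compared, and the share of all genes past it is given for each comparison. How often genes without a real difference pass the size rule between single libraries was not tested. With 1 library per group the comparisons have no test. An additive fit of genotype label and medium, with 1 residual degree of freedom, was not run. Read depth and counting error are unknown. Alternatives were other pseudocounts, minimums, scalings and size rules, removal of the length trend, and another WT library.

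Values in all 4 libraries are given for the 14 members with the highest mean FPKM, the 4 largest ratios each way in each comparison, and pairs of related genes; from other lists, up to 4 genes past the rule are named. The members and lists were chosen with earlier results of these data known. Transcript lengths came from GENCODE M21 and promoters from RefSeq, both on GRCm38, so no coordinate was carried over from mm9.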

Additional observations from a re-analysis of the deposited data

Results flagged for a closer look

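The KO to WT ratio of the mitotic genes lay on opposite sides of 0 in the 2 media. The median was 1.08 under induction and -0.22 in control medium, and 32 of 40 members were above 0 under induction and below 0 in control medium. Birc5 had the widest split, with a log2 ratio of 1.92 under induction and -1.03 in control medium. The side of 0 in control medium depended on scaling. Rescaled without small RNA genes and Rn45s, the median there was -0.0063, with 21 of 40 members below 0 and Birc5 at -0.80. The median of all genes there moved as well, from -0.02 to 0.20, so the median of the members lay below it in both settings. The difference between the media was not tested, since each combination held 1 library, and the induced WT library also differed from the other 3 in its sex-linked genes.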

How the results depend on the processing

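Of 95 alternative values, 76 stayed within 0.1 (medians, log2 scale) or 1.5 times (counts) of the reported value, 18 moved further and 1 changed sign. The change of sign came from setting the induced KO library against the control WT library in place of the induced one, where the median was -0.37 and 0 members were higher, against 1.08 and 22. With a pseudocount of 5 FPKM the medians were 0.56 for KO against WT under induction (6 higher), -0.11 in control medium (0 lower) and -0.79 for induction in WT (13 lower). With a pseudocount of 0.1 they were 1.45 under induction (29 higher, 7.48% of all genes) and -1.70 for induction in WT (37 lower, 10.9% of all genes). At a minimum of 5 FPKM, which left fewer members, they were 1.31 and -1.64. Rescaling without small RNA genes and Rn45s gave 0.90 under induction, -0.0063 in control medium (0 lower), -0.32 for induction in KO and -1.17 for induction in WT. It also moved the median of all genes, to -0.25, 0.20, -0.20 and 0.25 in that order. A 1.5-fold size rule gave 35 members higher under induction (15.1% of all genes) and 4 of 40 lower in control medium (7.13% of all genes). Median-ratio scaling, no minimum and removal of the length trend moved none of these values beyond the tolerance. No paired analysis was possible because each combination of genotype label and medium held 1 library. A fit of both factors over the 4 libraries was not run. The cause of these shifts was not tested. The depth of the libraries is unknown, so no counting error could be given for any gene.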
